A study of Mus musculus with 16 samples.

Results

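Long-chain acyl-CoA synthetases were followed in donor T cells of transplanted mice, in a study of ovarian graft-versus-host disease, in which T cells of an allogeneic transplant attack the recipient's ovary; syngeneic transplants served for comparison. The family has 5 members, Acsl1, Acsl3, Acsl4, Acsl5 and Acsl6, out of 20972 named genes on the array. Their 7 probes were found by the accession each carries, and each gene is represented by its brightest probe, judged by the mean over the 16 arrays. The family was selected because Acsl3 was lower and Acsl4 was higher in splenic cells after allogeneic transplantation, so the transplant values of the members are given as a description, with no test. The probes of 4 members, Acsl1, Acsl3, Acsl4 and Acsl5, passed the filter on dim signals, and Acsl6 did not.

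A fatty acid is chemically inert in the cell until it is joined to coenzyme A, and long-chain acyl-CoA synthetases make that bond at the cost of ATP. The resulting acyl-CoA can be burned in mitochondria by beta-oxidation, built into phospholipids and triglycerides, or split again by thioesterases. The members sit on different membranes and prefer different fatty acids, and T cells are known to change their use of fatty acids as they pass from rest to effector growth.

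The labels give female mice of a C57BL/6 background, without saying whether donor or recipient is meant. Donor T cells were taken after a haematopoietic stem cell transplant that was either syngeneic or allogeneic, sorted in 2 rounds as CD4+ or CD8+ and profiled with a single dye. Syngeneic splenic cells gave 2 CD4 and 3 CD8 arrays, allogeneic splenic cells 2 CD4 and 3 CD8 arrays, and allogeneic ovarian cells 2 CD4 and 4 CD8 arrays. The time after transplantation, the age of the mice and the recipient strain are not given in the sources used here, and nothing in the labels says whether replicates came from separate animals, so every p-value measures only the spread between these arrays. The 75th percentile of an array's signal ranged from 67.6 to 449.7 units, and the dimmest arrays were replicate 2 of ovarian CD4 cells and replicate 2 of allogeneic splenic CD4 cells. Of 12 measured T-cell markers, 12, Cd4 among them, were well above background on all arrays of each CD8 group and 10 to 11 on all arrays of each CD4 group, where Cd8a was above background on none. Levels below are log2 of the background-subtracted signal minus the array's 75th percentile, so 0 means a signal equal to that percentile, and the level of a probe is compared between samples but not with that of another probe.

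Start regions are shown for Acsl3 and Acsl4, on whose transplant values the family was selected, and for Acsl5, which stood higher on the allogeneic CD8 arrays where Acsl3 stood lower. Each run holds 250 bases before and 50 after a start that RefSeq lists (build GRCm38.p6), which for Acsl4 and Acsl5 lies within the outer limits of the gene, read 5′ to 3′ on the gene's strand, and capitals mark matches on either strand to GGGCGG (GC box), the CCAAT box, CACGTG (E box), AGGTCA (core of nuclear receptor elements) or TTCNNNGAA (GAS element).
Acsl3, chr1:78657575-78657874, plus strand: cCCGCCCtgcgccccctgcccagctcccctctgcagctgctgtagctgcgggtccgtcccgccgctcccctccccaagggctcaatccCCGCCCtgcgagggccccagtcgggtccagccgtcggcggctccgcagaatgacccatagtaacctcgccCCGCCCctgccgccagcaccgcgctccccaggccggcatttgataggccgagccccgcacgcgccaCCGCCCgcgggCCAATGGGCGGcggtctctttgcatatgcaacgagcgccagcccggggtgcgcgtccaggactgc
Acsl4, chrX:142390486-142390785, minus strand: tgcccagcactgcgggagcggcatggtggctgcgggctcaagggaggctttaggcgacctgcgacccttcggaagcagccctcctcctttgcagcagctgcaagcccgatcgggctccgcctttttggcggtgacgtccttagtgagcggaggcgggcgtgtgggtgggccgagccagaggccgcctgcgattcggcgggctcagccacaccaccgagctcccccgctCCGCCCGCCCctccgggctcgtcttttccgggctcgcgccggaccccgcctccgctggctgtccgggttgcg
Acsl5, chr19:55253119-55253418, plus strand: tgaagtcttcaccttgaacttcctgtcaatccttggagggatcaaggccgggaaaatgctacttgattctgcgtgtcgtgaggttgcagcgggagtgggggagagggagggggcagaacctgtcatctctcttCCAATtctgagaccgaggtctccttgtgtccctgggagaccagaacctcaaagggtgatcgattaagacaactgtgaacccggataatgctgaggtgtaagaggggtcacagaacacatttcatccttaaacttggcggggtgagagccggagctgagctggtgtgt
The Acsl3 window held 5 GC boxes and 1 CCAAT box, and a CCAAT box directly adjoins a GC box near its end. The Acsl4 window held 2 GC boxes, which overlap each other. The Acsl5 window held 1 CCAAT box and 0 GC boxes. Acsl1, not shown, has 2 listed windows, with 7 and 0 GC boxes and 0 and 2 CCAAT boxes. GC content was 74.0% in the Acsl3 window, 71.7% in that of Acsl4 and 53.0% in that of Acsl5, beside a median of 52.7% over 32851 such windows. A GC box was present in 35.7% of those windows, a CCAAT box in 37.4%, an E box in 7.15%, the nuclear receptor core in 16.3% and a GAS element in 8.30%. The last 3 motifs had no match in the 3 windows shown, which says only that these letters are not there.

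Acsl3, which sits on the endoplasmic reticulum and on nascent lipid droplets and is known for droplet formation, was measured well above background on 6 of the 16 arrays. All 5 syngeneic splenic arrays were among them, with -1.25 and -1.68 in CD4 cells and -2.19, -1.85 and -2.27 in CD8 cells. Allogeneic splenic CD4 cells gave -2.93 on replicate 1, which was above background, and -4.05 on replicate 2, which was not. The other 9 arrays were all below background. Allogeneic splenic CD8 cells stood at -5.90, -6.75 and -5.38. Ovarian CD4 cells stood at -4.12 and -4.82, and ovarian CD8 cells at -5.98, -7.04, -6.16 and -6.58. The syngeneic splenic arrays were thus the highest 5 of the 16, with no overlap with any allogeneic array. In CD8 cells the mean was -2.10 ± 0.22 (SD, n = 3) after syngeneic and -6.01 ± 0.69 (SD, n = 3) after allogeneic transplantation. Because the probe was below background on all 3 allogeneic CD8 arrays, the ratio is a bound: relative to the dimmest signal that each of those arrays called well above background, Acsl3 was at least 5.81-fold lower. This bound holds for the background-subtracted signal; the log2 difference was -0.76 after normexp background correction and -0.40 when all arrays were given one common signal floor of -2.50, so its size rests on how dim signals are treated. In CD4 cells the difference was -2.03 ± 0.48 (SE), with 1 of 2 allogeneic arrays above background. Within slide 1 and slide 2 it was -1.68 and -2.37. Leaving out replicate 1 or replicate 2 of the allogeneic splenic CD4 cells gave -2.59 or -1.47. Since Acsl3 passed the filter through its syngeneic arrays, its difference from them was built into its selection. In these sorted bulk populations, fewer cells with the transcript and less transcript per cell cannot be told apart.

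**Figure D1:**
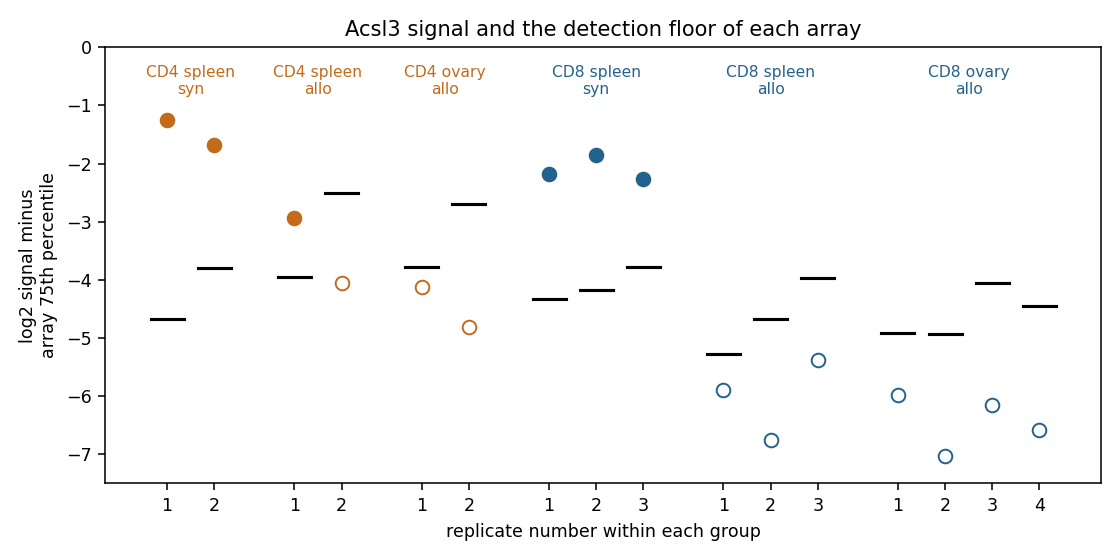
Acsl3 on each of the 16 arrays as log2 signal minus the array's 75th percentile, with the replicate number on the x axis; filled points were well above background, open points were not, and a black bar marks the dimmest signal that the array called well above background. The 5 syngeneic arrays and replicate 1 of allogeneic splenic CD4 cells lie above their bars, and the other 10 arrays lie below theirs.

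Markers of B cells moved with Acsl3. Of 11 B-cell markers, 10 were measured, and their summed linear level, in units of the array's 75th percentile, was 18.6 to 34.9 in syngeneic and 4.75 to 7.46 in allogeneic splenic CD8 cells. In CD4 cells it was 59.0 to 102.3 after syngeneic and 15.8 to 17.8 after allogeneic transplantation. Ovarian CD4 cells had 4.94 to 6.88 and ovarian CD8 cells 2.40 to 3.91. In the former 7 of the 10, Cd79a, Ms4a1 and Pax5 among them, were above background on no array, and in the latter 3. Replicate 2 of the ovarian CD4 cells was 1 of the 2 dimmest arrays, so these counts are not compared between groups. Syngeneic CD4 cells had the highest levels of both Acsl3 and the B-cell markers. The part of B cells in the Acsl3 values was not tested.

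Acsl4, which prefers arachidonic acid and other polyunsaturated fatty acids and is known for supplying the lipids that are oxidised in ferroptosis, was well above background on all 16 arrays. Its levels spanned a narrow range, from 2.98 to 4.17. Syngeneic splenic CD8 cells gave 3.25, 3.53 and 3.38, allogeneic splenic CD8 cells 3.81, 3.57 and 3.89, and ovarian CD8 cells 4.13, 4.17, 3.90 and 4.11. These CD8 groups stood in ascending order and no neighbours in that order overlapped, though only narrowly: the nearest arrays gave 3.53 and 3.57, and 3.89 and 3.90. CD4 cells gave 3.22 and 3.20 in the syngeneic spleen, 3.51 and 2.98 in the allogeneic spleen and 3.60 and 3.50 in the ovary. The allogeneic splenic CD4 arrays lay on both sides of the syngeneic pair, and their replicate 2, the dimmest array of all, was the lowest. Between transplants the difference was 0.37 ± 0.16 (SE) in CD8 cells, a 1.29-fold higher level, and 0.04 ± 0.19 in CD4 cells. The CD8 difference was 0.18 after quantile normalization and 0.16 with array weights. In CD4 cells slide 1 gave 0.29 and slide 2 -0.22, and leaving out replicate 1 of the allogeneic splenic cells turned the difference to -0.23.

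Acsl6, which is known from brain and red-cell precursors and also favours polyunsaturated fatty acids, was at the edge of detection. One of its probes was above background on no array, and the other on 1 array, replicate 2 of allogeneic splenic CD8 cells. The group means of both probes lay between -6.52 and -4.08 in every group, and no fold is given.

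Acsl5, an enzyme of mitochondrial and endoplasmic reticulum membranes, was well above background on all 16 arrays. Syngeneic splenic cells held the lowest levels, with 1.69 and 1.49 in CD4 cells and 1.70, 1.40 and 1.48 in CD8 cells. Allogeneic splenic CD8 cells reached 3.50, 3.17 and 2.52, and ovarian CD8 cells 2.70, 2.92, 2.68 and 2.85. Both allogeneic CD8 groups lay above every CD4 array and every syngeneic array. CD4 cells gave 2.13 and 1.70 in the allogeneic spleen and 2.13 and 2.33 in the ovary. In splenic CD8 cells the difference between transplants was 1.54 ± 0.22 (SE), a 2.90-fold higher level, with 1.63 on slide 1 and 1.08 on slide 2. In CD4 cells it was 0.32 ± 0.27, with 0.43 and 0.21 on the slides, and the arrays of the groups did not overlap.

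Acsl1, an enzyme of mitochondria and the endoplasmic reticulum that serves both oxidation and triglyceride synthesis, was well above background on all 16 arrays. CD4 cells gave 1.52 and 2.07 in the syngeneic spleen, 1.90 and 1.43 in the allogeneic spleen and 1.16 and 1.83 in the ovary. CD8 cells gave 0.85, 1.07 and 1.24 in the syngeneic spleen, 0.42, 0.23 and 0.17 in the allogeneic spleen and 0.12, 0.06, 0.09 and 0.31 in the ovary. The 3 CD4 groups overlapped each other, syngeneic CD8 cells overlapped only ovarian CD4 cells, and the 2 allogeneic CD8 groups overlapped each other and lay below all others. In splenic CD8 cells Acsl1 differed by -0.78 ± 0.21 (SE) between transplants, a 1.72-fold lower level after allogeneic transplantation, with -0.52 on slide 1 and -0.98 on slide 2. In CD4 cells the difference was -0.13 ± 0.26, and its sign differed between slide 1 (0.38) and slide 2 (-0.64). A second probe of Acsl1 gave -0.68 ± 0.36 in CD8 cells and -0.14 ± 0.44 in CD4 cells.

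**Figure D2:**
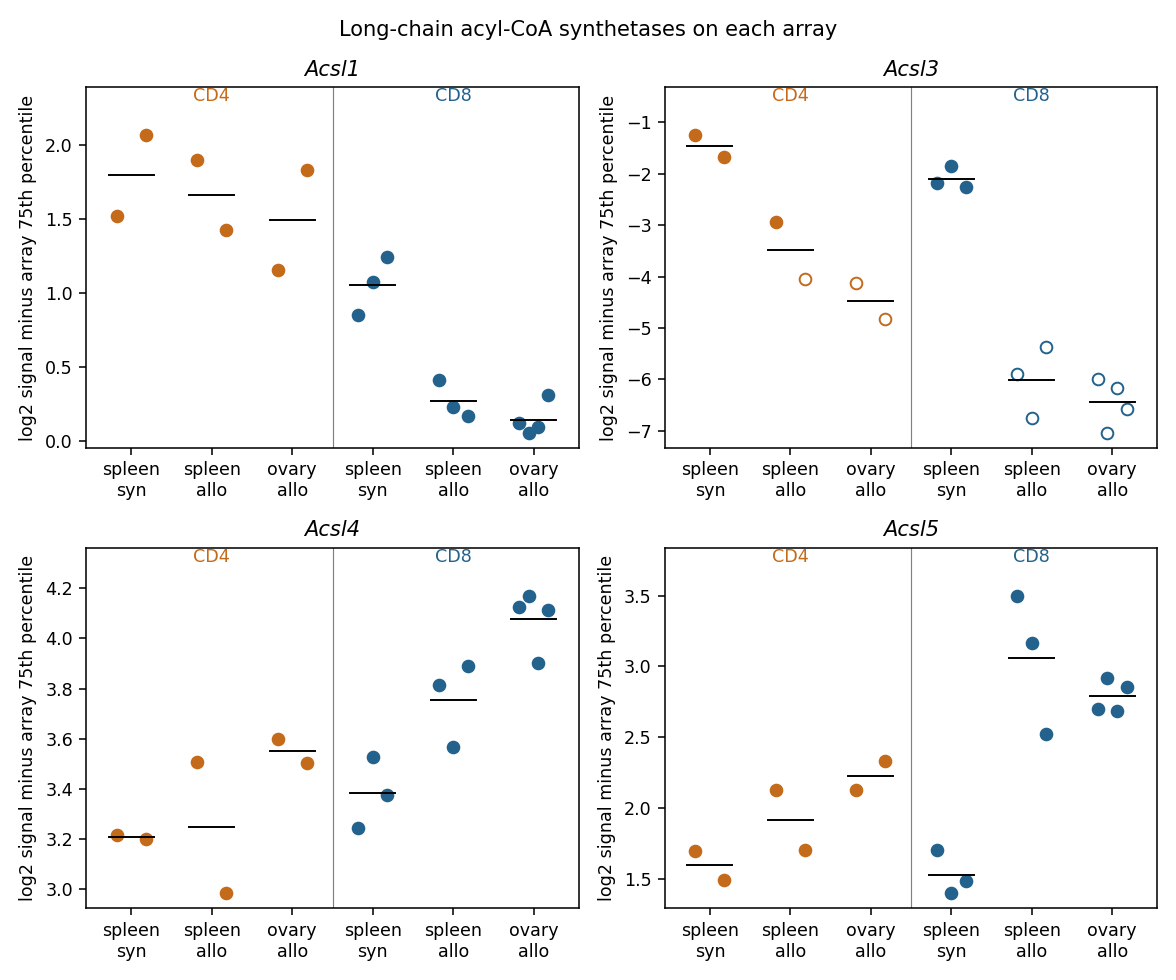
Level of each of the 4 members that passed the filter, as log2 signal minus the array's 75th percentile, in the 6 groups; a point is 1 array, open points were not well above background, and lines are group means. Acsl1 and Acsl3 are lower and Acsl4 and Acsl5 higher in allogeneic than in syngeneic splenic CD8 cells, with no overlap.

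In splenic CD8 cells the arrays of the 2 transplants overlapped for none of the 4 members: Acsl1 and Acsl3 were lower and Acsl4 and Acsl5 higher after allogeneic transplantation. Of all 22820 features, 38.4% passed the test in that comparison and 16.1% in the corresponding comparison of CD4 cells, and nothing is read from the members' count, since they were selected there. The median difference of all features in CD8 cells was -0.16, and it was -0.10 after quantile normalization and -0.05 after normexp background correction. Relative to that median Acsl1 stood at -0.62, Acsl4 at 0.53 and Acsl5 at 1.70, and each kept its sign under these scalings. No such value is given for Acsl3, which was below background on all 3 allogeneic arrays. In CD4 cells the arrays overlapped for Acsl1 and Acsl4 and not for Acsl3 and Acsl5. The share of all features without overlap is not given here, so nothing is read from how many members overlapped in either subset.

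**Figure D3:**
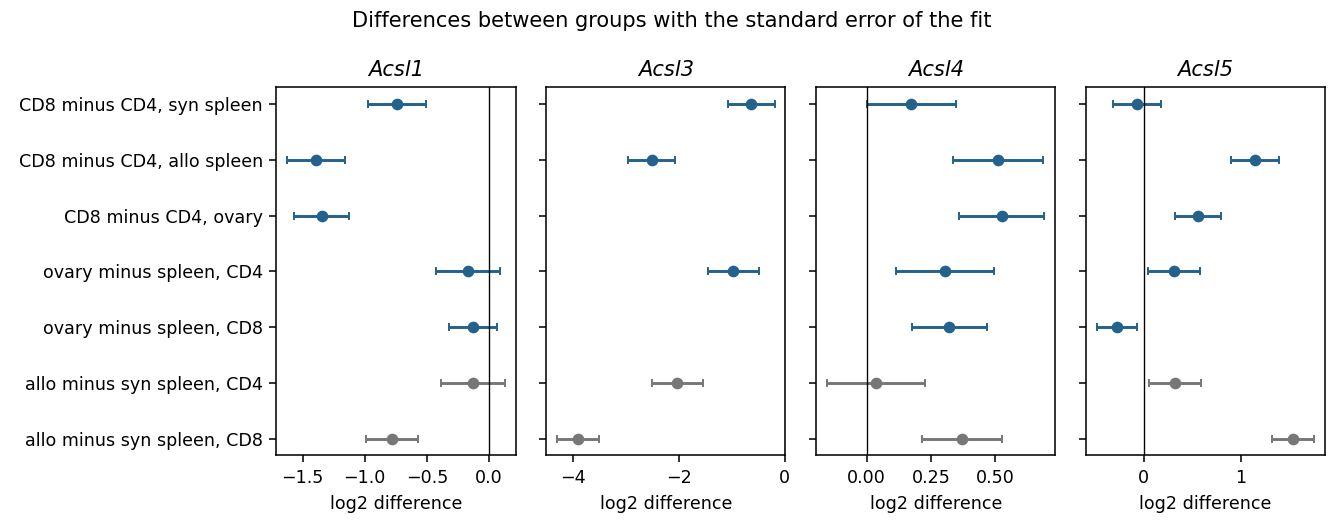
Log2 difference between groups for each member with the standard error of the fit, blue for the tested comparisons and grey for the transplant comparisons on which the members were selected; Acsl3 is left out where no array of either group was above background. Acsl1 lies below 0 and Acsl4 above 0 in all 3 comparisons of CD8 with CD4 cells.

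CD8 and CD4 cells of the same source were compared to ask whether the members differ between the subsets. The members were selected on another contrast, but the splenic comparisons use the same arrays. In the ovary 3 members were above background, and 2 of them passed the test, beside 17.5% of all features: Acsl1 was lower and Acsl4 higher in CD8 cells. Acsl1 was 2.54-fold lower in ovarian CD8 than in ovarian CD4 cells (difference -1.35 ± 0.22 SE, limma with Benjamini-Hochberg adjustment, adjusted p = 0.00207), and its second probe gave -1.43 ± 0.38. Acsl4 was 1.44-fold higher (0.53 ± 0.17 SE, limma adjusted p = 0.0467). Acsl3 was below background on all 6 ovarian arrays, so neither a direction nor a fold is read from its limma adjusted p of 0.0083, which stayed under the threshold in 14 of 20 alternatives; the difference was -0.11 after normexp background correction and 0 with the common floor. Acsl5 differed by 0.56 ± 0.23 and did not pass (limma adjusted p = 0.119), although its arrays did not overlap.

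In the allogeneic spleen all 4 tested members passed, Acsl3 with dim signals, beside 29.4% of all features. Acsl1 was 2.62-fold lower in CD8 than in CD4 cells (-1.39 ± 0.23 SE, limma adjusted p = 0.00141), with -1.20 ± 0.40 from the second probe. Acsl5 was 2.22-fold higher (1.15 ± 0.25 SE, limma adjusted p = 0.00526), and Acsl4 1.42-fold higher (0.51 ± 0.17 SE, limma adjusted p = 0.045). Acsl3 was above background on 1 of 2 CD4 arrays and 0 of 3 CD8 arrays, so no fold is given for its call (limma adjusted p = 0.00182); the difference was -0.23 after normexp background correction and 0 with the common floor, and neither passed. In the syngeneic spleen none of the 4 passed in limma, beside 4.15% of all features, and 1 had an unadjusted p under 0.05. That was Acsl1, with -0.74 ± 0.23 (adjusted p = 0.121) and no overlap. Acsl3, above background there on every array of both subsets, differed by -0.64 ± 0.44 (limma adjusted p = 0.621). Acsl4 differed by 0.17 ± 0.17 and Acsl5 by -0.07 ± 0.25, with a 95% interval for Acsl5 from -0.60 to 0.47.

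Within slide 1 Acsl1 differed between subsets by -1.07 in the ovary and -1.58 in the allogeneic spleen, and within slide 2 by -1.63 and -1.25. Each slide holds 1 CD4 array of a group, and slide 2 holds 1 allogeneic splenic CD8 array, so no call is read from a slide alone. The call of Acsl5 in the allogeneic spleen was lost without the 2 dimmest arrays (0.94), after normexp background correction (0.65) and when only the groups compared were fitted (1.15, limma adjusted p = 0.129), and slide 2 gave 0.82. The calls of Acsl4 were close to the threshold: under quantile normalization the differences were 0.28 in the ovary and 0.23 in the allogeneic spleen, and neither passed. In the ovary the Acsl4 call was lost on leaving out either CD4 array or CD8 replicate 1, 2 or 4, with differences from 0.48 to 0.57. In the allogeneic spleen it was lost without CD4 replicate 2 (0.25), CD8 replicate 1 (0.48) or CD8 replicate 3 (0.44).

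Macrophage and monocyte markers moved with the subset difference of Acsl1. Of 12 such markers 11 were measured, and 10 of them were above background on all arrays of each CD4 group, with Cd163 above background on none. Their summed level was 41.8 to 107.5 in ovarian, 75.6 to 85.3 in allogeneic splenic and 21.0 to 36.8 in syngeneic splenic CD4 cells. It was 8.43 to 8.81 in ovarian, 6.97 to 8.55 in allogeneic splenic and 6.86 to 10.3 in syngeneic splenic CD8 cells. Among CD4 cells the marker sum was lowest in the syngeneic spleen, where Acsl1 averaged 1.79, beside 1.66 in the allogeneic spleen and 1.49 in the ovary. The part of macrophages in the Acsl1 values was not tested.

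Ovarian and splenic cells of allogeneic recipients were compared to ask whether the members differ with the tissue. No member passed in CD8 cells, beside 0.513% of all features, or in CD4 cells, beside 0.903%, by limma with Benjamini-Hochberg adjustment. At an unadjusted p under 0.05 the count was 1 in CD8 and 0 in CD4 cells. That 1 was Acsl4, higher in every ovarian than in every splenic CD8 array (0.32 ± 0.15 SE, limma adjusted p = 0.597). With array weights 2 members passed in CD8 cells, Acsl4 at 0.56 and Acsl5 at -0.33, but so did 10631 of the 22820 features. Acsl1 differed by -0.13 (95% interval -0.55 to 0.30) in CD8 and by -0.17 (-0.73 to 0.39) in CD4 cells. Acsl5 differed by -0.27 (-0.72 to 0.17) in CD8 and by 0.31 (-0.27 to 0.90) in CD4 cells, and Acsl4 by 0.31 (-0.11 to 0.72) in CD4 cells. Acsl3 was below background in the ovary in both subsets, and no fold is given. These comparisons use the allogeneic splenic arrays on which the members were selected. The summed level of 10 granulosa-cell markers was 19.5 to 23.2 in ovarian and 20.0 to 21.3 in allogeneic splenic CD8 cells, and 31.8 to 32.0 and 24.6 to 27.0 in the corresponding CD4 cells. That of 9 theca and luteal markers was 11.7 to 20.7 and 1.67 to 24.3 in CD8 cells, and 18.7 to 20.0 and 12.4 to 27.9 in CD4 cells. In each pair but the granulosa sum of CD4 cells the tissues overlapped. No allogeneic splenic array had Amh, Fshr, Cyp19a1, Gja1 or Wt1 of the first list above background. The same held for Cyp11a1, Hsd3b1 and Lhcgr of the second. Of these genes, Amh and Lhcgr were also above background on no ovarian array, and Fshr, Cyp19a1 and Gja1 on no ovarian CD4 array. The interaction of tissue with subset was passed by none of the members and 0% of all features, with 0 members and 2539 features at an unadjusted p under 0.05. Quantile normalization gave 34 features and normexp background correction 53.

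The genes whose profile over the 16 arrays was most like that of a member were sought among 9684 named genes above background on all arrays, by the root mean square difference of log2 levels after each gene's own mean was taken off. For Acsl1 these were Sema4b (0.26), Etv1 (0.26) and Tasp1 (0.26), beside a median of 0.84 over all genes searched. Sema4b averaged 1.13, 1.33 and 1.31 in ovarian, allogeneic splenic and syngeneic splenic CD4 cells, and -0.22, -0.07 and 0.70 in the corresponding CD8 cells. For Acsl4 they were Ndufc1 (0.10), Znhit1 (0.10) and Mrps25 (0.12), beside a median of 0.48. Ndufc1 averaged 5.01, 5.55 and 5.74 in syngeneic splenic, allogeneic splenic and ovarian CD8 cells. For Acsl5 they were Sgcb (0.11), Faim (0.12) and Dap (0.14), beside a median of 0.69. Faim, an inhibitor of Fas-induced cell death, averaged 1.10, 2.51 and 2.31 in syngeneic splenic, allogeneic splenic and ovarian CD8 cells. These are likenesses of profiles over the same arrays, which share scaling and depth, and nothing about shared control is drawn from them.

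The enzymes that take up, burn, store or release acyl-CoA were examined as the setting of the family. Of 152 genes in 9 lists, 122 were tested. The lists were chosen with earlier results of these data known, so no excess over all features is read from their shares. In splenic CD8 cells 37 were higher and 24 lower after allogeneic transplantation, 61 of the 122 (50%), with a median difference of 0.10. Over all features 38.4% were called, 18.8% higher and 19.6% lower, with a median of -0.16, and the counts of the single lists in these cells stand beside those shares. The list for acyl-CoA entry into mitochondria and beta-oxidation had 10 of 19 tested genes higher and 0 lower, with a median of 0.69. Acadl, which begins the oxidation of long-chain acyl-CoA, rose by 2.73 ± 0.16 (limma adjusted p = 1.04e-07). Cpt1a, which passes acyl groups to carnitine at the mitochondrial outer membrane, rose by 1.81 ± 0.21 (limma adjusted p = 2.63e-05), and Slc25a20, the carrier that brings acylcarnitine in, by 2.13 ± 0.32 (limma adjusted p = 0.00021). Etfb, a subunit of the flavoprotein that takes the electrons, rose by 1.86 ± 0.15.

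Other acyl-CoA synthetases went both ways in the same cells, with 3 of 12 higher and 6 lower. Acsbg1, the bubblegum synthetase, rose by 2.46 ± 0.25 and Slc27a4, a very long chain synthetase and transporter, by 0.95 ± 0.15, while the acetyl-CoA synthetases Acss1 and Acss2 stood at -1.50 ± 0.25 and -1.49 ± 0.26, both called. Among thioesterases, which undo the reaction, 4 of 12 were higher and 2 lower, led by Acot7 at 3.35 ± 0.19. In glycerolipid synthesis and lipid droplets 8 of 19 were higher and 2 lower, with Agpat4 at 1.32 ± 0.14 and Lpin1 at 1.80 ± 0.33 among the former and the droplet coat gene Plin3 at -1.48 ± 0.26 among the latter. Among phospholipid and cholesterol acyltransferases 3 of 8 were higher and 2 lower, and Soat2, which esterifies cholesterol with acyl-CoA, rose by 4.03 ± 0.23. Elongation and desaturation had 4 of 13 higher and 5 lower, among them Scd2 at 1.12 ± 0.14 and Elovl7 at -2.76 ± 0.28. Uptake and binding had 3 of 11 higher and 1 lower, with the binding protein Fabp5 at 2.49 ± 0.27. In the ferroptosis list, to which Acsl4 relates, 2 of 16 were higher and 2 lower, with Gch1 at 1.34 ± 0.15 and Nfe2l2 at -1.34 ± 0.14. Of 12 lipid sensing transcription factors 0 were higher and 4 lower, among them Ppargc1b at -1.76 ± 0.15 and Srebf2 at -0.94 ± 0.25. Each value is a log2 difference with its SE, and each named gene had a limma adjusted p under the threshold of 0.05.

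**Figure D4:**
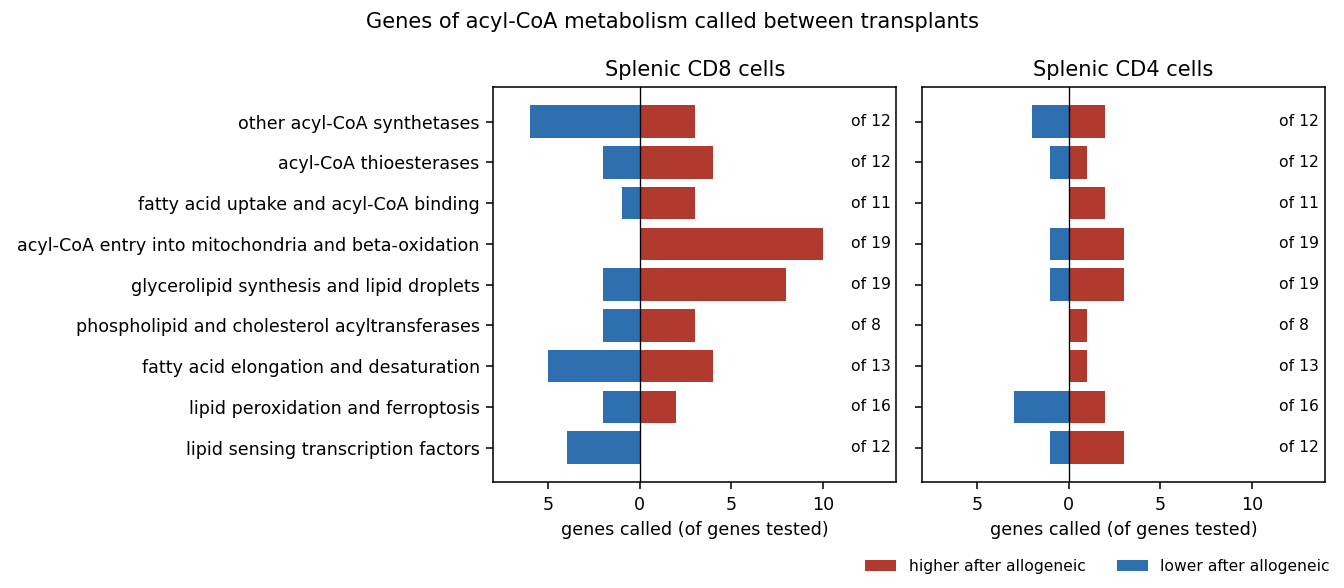
Number of genes in each list of acyl-CoA metabolism that passed the test between transplants, in splenic CD8 and CD4 cells; red bars to the right count genes higher after allogeneic transplantation, blue bars to the left genes lower, and the number tested stands at the right. In CD8 cells the beta-oxidation list has 10 of 19 higher and 0 lower. The lists were chosen with earlier results of these data known.

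In splenic CD4 cells 18 of the 122 were higher and 9 lower after allogeneic transplantation, 22.1% beside 16.1% of all features, of which 10.4% were higher and 5.70% lower. The median difference was 0.09, beside 0.04 for all features. None of these calls was kept when only the 2 groups compared were fitted, so each rests on the spread estimated with the other groups. Acadl rose by 1.75 ± 0.19 (limma adjusted p = 0.000152), Scd2 by 1.28 ± 0.17, Agpat4 by 1.32 ± 0.18, Slc27a4 by 1.27 ± 0.18 and Acot7 by 1.55 ± 0.23. The 9 lower genes included Slc27a3 at -1.79 ± 0.46, Srebf2 at -1.45 ± 0.30, Acadm at -1.26 ± 0.33, Plin3 at -1.24 ± 0.31 and Nfe2l2 at -0.92 ± 0.17. The beta-oxidation list had 3 of 19 higher and 1, Acadm, lower, 21.1% beside 16.1% of all features. Slc7a11, the cystine carrier that feeds glutathione synthesis, was above background on 2 of 2 syngeneic and 0 of 2 allogeneic CD4 arrays, at least 6.58-fold lower. Its syngeneic CD4 arrays were enough to pass the filter, so a difference from them was favoured by that filter. Nothing is therefore read from its call (limma adjusted p = 0.0074). The call was kept in 14 of 18 alternatives and lost, among others, with the common signal floor. Leaving out replicate 1 of the syngeneic CD4 cells left 10 genes called, and leaving out replicate 2 left 17. The lipid-sensing factors Pparg (1.72 ± 0.31) and Nr1h3 (2.21 ± 0.63) and the triglyceride enzyme Dgat2 (2.10 ± 0.61) also passed as higher. The macrophage marker sum was 21.0 to 36.8 in syngeneic and 75.6 to 85.3 in allogeneic CD4 cells, and its part in these genes was not tested.

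Between ovarian and splenic cells the lists were nearly without calls. In CD8 cells Soat2 was the 1 gene called of 122, 2.14-fold lower in the ovary (-1.10 ± 0.21 SE, limma adjusted p = 0.0479), and the call was lost when any of the 7 arrays but ovarian CD8 replicate 3 was left out. In CD4 cells 0 were called by limma, with 23 at an unadjusted p under 0.05. Leaving out replicate 2 of the allogeneic splenic CD4 cells, a dim array, gave 13 called genes.

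Between subsets, CD8 cells had 12 of the 122 higher and 17 lower than CD4 cells in the ovary, 23.8% beside 17.5% of all features. In the allogeneic spleen 28 were higher and 15 lower, 35.2% beside 29.4%, and in the syngeneic spleen 3 were higher and 8 lower, 9.02% beside 4.15%. Quantile normalization gave 7 higher and 11 lower in the ovary and 16 higher and 15 lower in the allogeneic spleen. Of all features 8.48% were higher and 9.03% lower in the ovary, and 15.2% and 14.3% in the allogeneic spleen. In the beta-oxidation list 3 of 19 were higher and 0 lower in the ovary, 15.8% beside 17.5% of all features called. In the allogeneic spleen 8 of 19 were higher and 0 lower, 42.1% beside 29.4%. In the syngeneic spleen 0 passed in either direction. Etfb, for example, was higher in CD8 cells by 0.86 ± 0.16 in the ovary (limma adjusted p = 0.00404) and by 1.06 ± 0.17 in the allogeneic spleen (limma adjusted p = 0.00102). When only the groups compared were fitted, all 8 allogeneic splenic calls of that list were lost, Etfb among them. Of all list genes called in the allogeneic spleen, only Agpat3, Soat2, Slc40a1 and Pparg kept the call in that fit. Pparg, which drives lipid storage genes, was lower in CD8 cells in all 3 sources, by log2 differences of -2.33 ± 0.27, -2.66 ± 0.28 and -1.60 ± 0.28. Dgat2 stood at -3.33 ± 0.53 in the ovary and -2.75 ± 0.56 in the allogeneic spleen. The macrophage marker sum was likewise lower in CD8 than in CD4 cells in all 3 sources, and its part in these values was not tested.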

How the data were processed

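RNA of sorted donor T cells was measured on 16 one-colour arrays in 6 groups, grouped by their titles. The deposited scanner tables hold spot intensity in scanner units; per the file headers, Agilent Feature Extraction 11.5.1.1 subtracted the background and removed spatial trends. The deposited series matrix holds log2 values, used as an alternative, and they matched log2 signals shifted here by the 75th percentile and centred per probe (r at least 0.9998 on every array). The authors' own steps are not given in the sources read.

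Log2 processed signal was shifted by each array's 75th percentile over non-control probes. Of 55681 probes, 27656 were named by matching accessions to RefSeq (GRCm38.p6), as were the start regions. Array coordinates use another build and are not given. The filter asked that a probe be well above background throughout 1 or more of the groups, and the probe of highest mean stood for its gene, giving 22820 features, 13681 of them named. No spot was saturated. A limma 3.58.1 model (R 4.3.3) with a mean for each group used all arrays (residual degrees of freedom: 10) and was checked on simulated data. Features with a Benjamini-Hochberg adjusted p under 0.05 were called. For a probe below background on all arrays of a group, the bound compares the other group's mean with the mean, over the dim arrays, of the higher of the probe's signal and the dimmest signal so called.

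The members and the lists were chosen with earlier results of these data known. Named beside the 5 members were pathway genes called between ovary and spleen, up to 4 called genes of smallest p per list in the other comparisons, and the 3 genes most like each member above background on at least 12 arrays. Arrays lie on 2 slides with 1 scan date, every group on both. Alternatives were quantile normalization, normexp (offset 50), the series matrix, other filters, the mean of a gene's probes, slide and replicate blocks, each slide alone, array weights, a trended robust variance, fits of the compared groups, and leaving out each array. Chosen after seeing the data were a common signal floor, leaving out the 2 dimmest arrays, leave-one-out for lists, and the interaction of transplant with subset for list genes. That interaction was passed by 11.9% of features.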

Additional observations from a re-analysis of the deposited data

Results flagged for a closer look

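The difference between splenic CD8 and CD4 cells ran in opposite directions after the 2 transplants for 3 genes of acyl-CoA metabolism. They were picked because both differences were called and had opposite signs, so the change between transplants is given with its SE as a description, with no test. Soat2, which esterifies cholesterol, was lower in CD8 than in CD4 cells by a log2 difference of -2.16 after syngeneic and higher by 2.27 after allogeneic transplantation, a change of 4.42 ± 0.36. Its CD8 arrays stood at -2.09, -2.19 and -1.65 after syngeneic and at 1.91, 1.90 and 2.36 after allogeneic transplantation, and its CD4 arrays at 0.06 and 0.30, and at 0.22 and -0.65. The thioesterase Acot7 changed from -0.90 to 0.90, by 1.80 ± 0.30. The lysocardiolipin acyltransferase Lclat1 changed from -0.78 to 1.08, by 1.85 ± 0.27. The syngeneic call was kept in 19 of 20 alternatives for Soat2, but in 11 of 20 for Acot7 and 10 of 20 for Lclat1. Of the 5 fits that left out a compared array, 0 lost that call for Soat2, 4 for Acot7 and 5 for Lclat1.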

How the results depend on the processing

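Acsl1 was lower in CD8 than in CD4 cells in every alternative fitted. Its call was kept in 20 of 21 alternatives in the ovary and 19 of 20 in the allogeneic spleen. The exception was slide 2 alone, and either slide holds 1 array of each CD4 group. Acsl4 was higher in CD8 cells in every alternative fitted and was called in 8 of 21 in the ovary and 8 of 20 in the allogeneic spleen. The number of arrays limits the precision, and signal over background limits Acsl3 and Acsl6. The estimation of array weights stopped before it converged.

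Members called between ovarian CD8 and CD4 cells, counting Acsl3, which was below background there, fell from 3 to 1 under quantile normalization, normexp background correction and slide 1 alone and to 0 on slide 2 alone, with 1 to 3 on leaving out an array. In the allogeneic spleen 4 fell to 1 under normexp and when only the groups compared were fitted, to 0 on slide 2 alone and to 2 without the 2 dimmest arrays. In the syngeneic spleen array weights, leaving out the 2 dimmest arrays, and the common signal floor of -2.50 gave 1 in place of 0, beside 1644, 1335 and 1118 features called. Between ovarian and splenic CD8 cells array weights gave 2 in place of 0, beside 10631 of the 22820 features in place of 117.

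The Acsl3 transplant difference in CD8 cells was -0.76 under normexp, -3.32 on slide 2 alone, -4.71 with array weights and -0.40 with the common floor. In CD4 cells it was -0.88 under normexp, -1.47 without the dimmest arrays and -1.04 with the common floor, and -2.59 to -1.47 on leaving out an array. That of Acsl4 in CD8 cells was 0.18 under quantile normalization and 0.16 with array weights. In CD4 cells it was 0.21 under normexp, 0.29 on slide 1, -0.22 on slide 2, 0.30 without the dimmest arrays and -0.23 to 0.30 on leaving out an array.

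Small values that were not called changed sign. On slide 2 alone the ovary minus spleen difference was 0.029 for Acsl1 and 0.25 for Acsl5 in CD8 cells and 0.40 for Acsl1 in CD4 cells, where leaving out an array gave -0.51 to 0.17. For Acsl3 in CD8 cells it was 0.021 under normexp and 0.14 with array weights. Acsl5 between syngeneic subsets was 0.0068 on slide 1, 0.045 with the replicate block and -0.17 to 0.034 on leaving out an array. Acsl1 between transplants in CD4 cells was 0.38 on slide 1, 0.11 without the dimmest arrays and -0.40 to 0.14 on leaving out an array.

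Pathway genes called between ovary and spleen were 1 in CD8 cells, 0 under quantile normalization, 3 with the slide as a block, 0 with the replicate block, 3 without the dimmest arrays and 0 to 4 on leaving out an array. In CD4 cells they were 0, and 1, 2 and 10 under quantile normalization, the slide block and without the dimmest arrays, with 1 to 13 on leaving out an array. Between transplants in CD4 cells leaving out an array gave 10 to 32 in place of 27. The cause of these shifts was not tested.

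The replicate numbers were not taken as pairs, since not every same-numbered pair correlated above 0.1 in its deviations from the group means: the correlations were 0.065 to 0.32 between ovary and spleen, 0.050 to 0.33 between transplants and -0.44 to 0.45 between subsets. With the replicate block the Acsl4 calls between subsets were lost (differences of 0.52 in both sources), and members called between ovarian and splenic CD8 cells stayed at 0.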
